A study of Homo sapiens with 4 samples.

Results

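NF-κB is a family of dimeric transcription factors built from 5 subunits. Transcripts of these subunits, of kinases and adaptors, of inhibitors and feedback regulators, and of known target genes were followed in JJN3 cells. The cells carried either a hairpin RNA against WNK1 or another hairpin. JJN3 is an established human multiple myeloma line, that is, a cancer line of plasma cells. The 35 genes were taken by symbol from the deposited count table, and all 35 were found among the 60682 genes used. They comprised 5 subunits, 10 kinases and adaptors, 9 inhibitors and feedback regulators and 11 target genes. The shWNK1 group carried a short hairpin RNA (shRNA) against WNK1, a kinase that controls chloride cotransport, and the other group carried the hairpin labelled NS. Each group had 2 libraries of total RNA. Both groups were transduced and grown in the same mixed medium with serum, and the labels give neither a time after transduction nor the hairpin sequences. Whether the replicates came from separate transductions is not stated, and the p-values therefore cover the spread of these libraries alone, which could be technical.

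In the canonical arm of the pathway, the IκB kinase complex (CHUK, IKBKB and its scaffold IKBKG) marks the inhibitor IκBα for destruction and frees dimers of p50, made from NFKB1, with RELA or REL. In the noncanonical arm, the kinase NIK, made from MAP3K14, acts through CHUK to process the NFKB2 product to p52, the partner of RELB, while TRAF3, TRAF2 and BIRC3 keep NIK unstable. NF-κB induces several of its own inhibitors, and lesions of the noncanonical arm, such as loss of TRAF3 or gain of MAP3K14, are a known feature of multiple myeloma.

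The κB element is the DNA site that these dimers bind, and it is shown here because many of the genes are known to be induced by NF-κB itself. Promoter windows of 300 bases (250 before to 50 after the gene start, RefSeq, GRCh38.p14) were matched for 30 of the 35 genes; RELB, IKBKB, NFKBIE, CD40 and IER3 had no entry. The 10-base κB consensus, searched on both strands, lay in 12 of these 30 windows (40.0%), against 2075 of all 35116 windows (5.91%). It lay in 2 of 4 subunit windows, 2 of 9 kinase and adaptor windows, 4 of 8 inhibitor and feedback windows and 4 of 9 target windows. Among all tested genes with a window, the share was 7.01% in those that rose, 6.31% in those that fell and 6.18% in those not called, and a match of letters is a description, not a bound site. Among the NF-κB genes with a window, a match lay in 7 of 14 that rose, 1 of 3 that fell and 3 of 11 not called. TRAF1 and NFKB2 were among the rising genes without a match. The windows below, all with a match, come from genes that rose, with NFKB1, which fell, and NFKBIA, which was not called. Each is read 5′ to 3′ on the strand of its gene, with the match, in either orientation, in capitals.
TNFAIP3, first match: gtgactttGGAAAGTCCCgtggaaat
TNFAIP3, second match: agtcccgtGGAAATCCCCgggcctac
BIRC3, first match: tgggtcatGGAAATCCCCgagtgggt
BIRC3, second match: ttaccgctGGAGTTCCCCtaagtcct
NFKBIZ: tttggtctGGGAATTTCCagtgtgca
BCL3: ggctgcagGGGAAGTCCCggcgcccg
MAP3K8: ggagacgcGGAATTTCCCagcgcggg
TRAF3: ggcgcgccGGGGATTTCCagcgcgcg
SDC4: cttccactGGGGAATTCCgggcgggg
NFKB1: acgtcagtGGGAATTTCCagccagga
NFKBIA: actggcttGGAAATTCCCcgagcctg
The TNFAIP3 windows lie at chr6:137867389-137867414 and chr6:137867401-137867426, the BIRC3 windows at chr11:102317493-102317518 and chr11:102317557-102317582, and the NFKBIZ window at chr3:101828010-101828035. The BCL3 window is chr19:44747949-44747974, that of MAP3K8 chr10:30434234-30434259 and that of TRAF3 chr14:102777658-102777683, all on the plus strand. SDC4 (chr20:45348254-45348279) and NFKBIA (chr14:35404563-35404588) are read on the minus strand, and NFKB1 (chr4:102501524-102501549) on the plus strand. REL, CFLAR and LTB held the other matches, and the 2 matches of REL overlap each other. NFKB1, which fell, and NFKBIZ, which rose, have the same letters in capitals.

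WNK1 had 18.6 and 19.6 CPM (the count relative to the library's total over the tested genes, scaled by edgeR's TMM factors for library make-up) in the shWNK1 libraries, against 288 and 245 CPM in the NS libraries. This 13.9-fold lower level (log2 -3.80, SE 0.085, edgeR adjusted p = 4.2e-25) went in the direction that the labels call for. Total counts ran from 16973521 to 20164122 per library. Libraries of 1 group differed by a chi-square of 2.94 (shWNK1) or 5.76 (NS) per degree of freedom, where 1 is counting noise, and libraries of different groups by 36.3 to 42.7. Of 14864 genes tested, 18.5% rose and 20.2% fell at an adjusted p under 0.05, and the groups did not overlap for 68.4%. With shWNK1 replicate 1 or 2 left out, 1663 or 1632 genes rose, against 2755 with all 4 libraries. All 8 plasma cell markers were measured well enough to test, with summed levels of 1486 and 1517 CPM in shWNK1 and 1816 and 1764 CPM in NS libraries; 2 rose and 5 fell. Summed markers of T and NK cells reached at most 1.06 CPM in any library, with CD3D and CD3G at 0, those of myeloid cells 1.11 CPM, with LYZ, FCGR3A, MPO and CSF3R at 0, and those of erythroid cells 0.886 CPM, with HBB at 0. Mature B-cell markers summed to 3.15 and 3.21 CPM in shWNK1 and 8.15 and 6.74 CPM in NS libraries, where PAX5 was the tested one and fell, and MS4A1, CD22 and FCER2 were at 0. Stromal and epithelial markers summed to 130 and 135 CPM in shWNK1 and 120 and 132 CPM in NS libraries, most of it EPCAM, which was not called, and KRT18 fell. The part of these markers in the results was not tested.

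Of the 35 genes, 32 passed the filter on low counts, and 16 of them rose, 3 fell and 13 were not called in shWNK1 cells. Among all genes tested, 18.5% rose and 20.2% fell. The 35 genes were chosen with earlier results of these data known, so their counts are not independent of those results. The rises included the feedback inhibitor TNFAIP3, the apoptosis inhibitor BIRC3, the adaptor TRAF1 and the noncanonical subunits NFKB2 and RELB, and the falls were NFKB1, RELA and CHUK. The median log2 fold change was 0.30 over the 32 genes and 0.01 over all genes tested. In 6 genes the rise was at least 2-fold (TRAF1, SDC4, TNFAIP3, TNFAIP2, NFKBIZ and MAP3K8), and NFKB1 was the one fall of that size. The groups did not overlap for 23 of the 32, which is near the 68.4% of all genes tested, so this count says little about these genes. Of the 23, 20 were higher and 3 lower, where 5157 of all 14864 genes tested were apart and higher and 5007 apart and lower. In libraries of bulk RNA, fewer cells with a transcript and less of it per cell cannot be told apart.

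**Figure D1:**
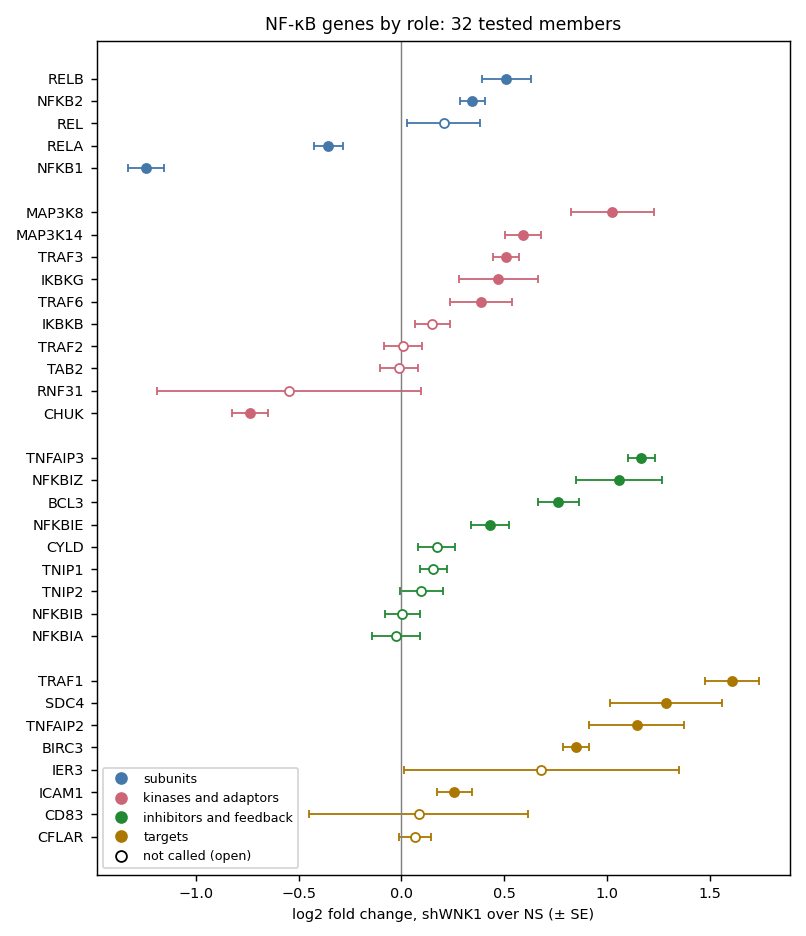
Log2 fold change of shWNK1 over NS (x axis, bars are the standard error) for the 32 tested genes, grouped by role and sorted within each role; filled points passed an adjusted p of 0.05 and open points did not. No inhibitor or feedback regulator and no target lies below -0.03. The called genes NFKB1 (-1.24), CHUK (-0.74) and RELA (-0.36) do, as does RNF31 (-0.55), which was not called.

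**Figure D2:**
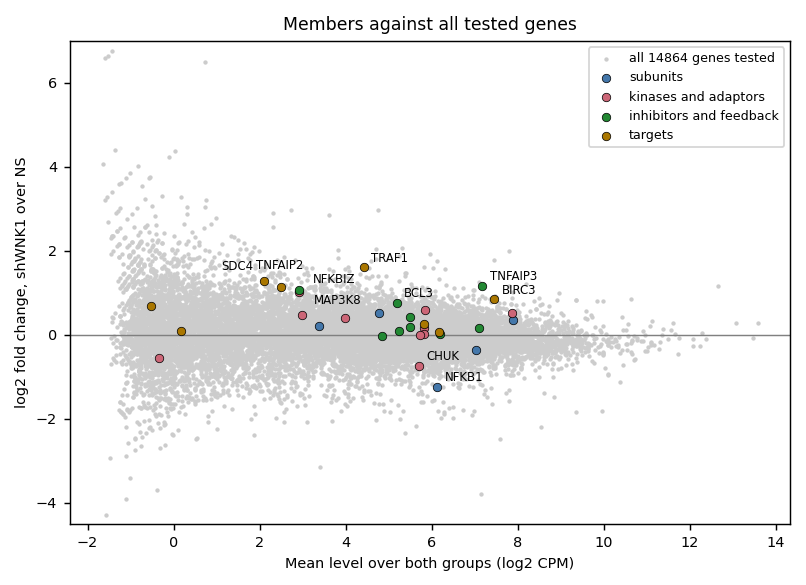
Log2 fold change (y axis) against the mean level over both groups in log2 CPM (x axis) for all 14864 genes tested (grey) and the NF-κB genes by role (coloured). TNFAIP3 and BIRC3 changed at a high level, and SDC4, TNFAIP2, NFKBIZ and MAP3K8 at a low one.

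Of the 5 subunits, 2 rose and 2 fell, where 18.5% of all genes tested rose and 20.2% fell. The called falls were the canonical NFKB1 and RELA, and the called rises the noncanonical NFKB2 and RELB. The canonical subunit REL was not called and leaned higher (log2 0.21). With 5 genes, these counts say little by themselves. NFKB1, the precursor of p50 (chromosome 4, 102501331 to 102617302, hg38), had 40.0 and 43.3 CPM in shWNK1 cells, against 106 and 91.1 CPM in NS cells. Both shWNK1 libraries thus lay below both NS libraries, and the level was 2.37-fold lower (log2 -1.24, SE 0.087, edgeR adjusted p = 4.8e-13). RELA, the activating p65 subunit (chromosome 11, 65653597 to 65663090), had 112 and 116 CPM in shWNK1 cells and 155 and 138 CPM in NS cells. This was a smaller fall without overlap, 1.28-fold (log2 -0.36, SE 0.069, edgeR adjusted p = 1.0e-04). NFKB2, the precursor of p52 (chromosome 10, 102394110 to 102402524), rose to 258 and 271 CPM in shWNK1 cells, against 201 and 216 CPM in NS cells (log2 0.34, SE 0.061, edgeR adjusted p = 2.8e-05). RELB, the partner of p52 (chromosome 19, 45001449 to 45038198), had 33.5 and 30.7 CPM in shWNK1 cells and 20.7 and 24.3 CPM in NS cells. It rose 1.42-fold (log2 0.51, SE 0.118, edgeR adjusted p = 7.3e-04). REL, the c-Rel subunit, was at 10.8 and 11.7 CPM in shWNK1 cells and 11.3 and 8.21 CPM in NS cells, with overlapping groups (edgeR adjusted p = 0.39). Another annotated gene on the same strand covers 43.3% of the exon bases of REL, and the counting command in the header holds no option to assign reads that fall in overlapping genes, so its level is uncertain.

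Per length of annotated exons, the make-up of the subunit pool differed more between the groups than its sum. TPM is a relative level from the counts and the deposited gene lengths. These lengths take in all annotated exons of a gene, so shares and ranks between genes depend on the annotation. The 5 subunits summed to 331 and 339 TPM in shWNK1 cells, against 329 and 315 TPM in NS cells. Both shWNK1 sums were thus above both NS sums by a small margin. NFKB2 made up 58.5% and 59.5% of that sum in shWNK1 cells and 44.7% and 48.7% in NS cells. NFKB1 made up 6.72% and 7.05% in shWNK1 cells, against 17.5% and 15.2% in NS cells, and RELA made up 22% in both shWNK1 libraries, against 29.7% and 26.8% in NS libraries. RELB accounted for 11.9% and 10.5% in shWNK1 cells and 7.19% and 8.59% in NS cells. REL stayed under 1% in each library, a share as uncertain as its level, given the overlapping gene. The ratio of NFKB2 to NFKB1 was 8.70 and 8.44 in shWNK1 cells, against 2.56 and 3.19 in NS cells. The ratio of RELB to RELA was 0.540 and 0.479 in shWNK1 cells, against 0.242 and 0.320 in NS cells. Neither ratio overlapped between groups, and with 2 libraries a group an exact permutation test cannot give a two-sided p under 0.333.

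**Figure D3:**
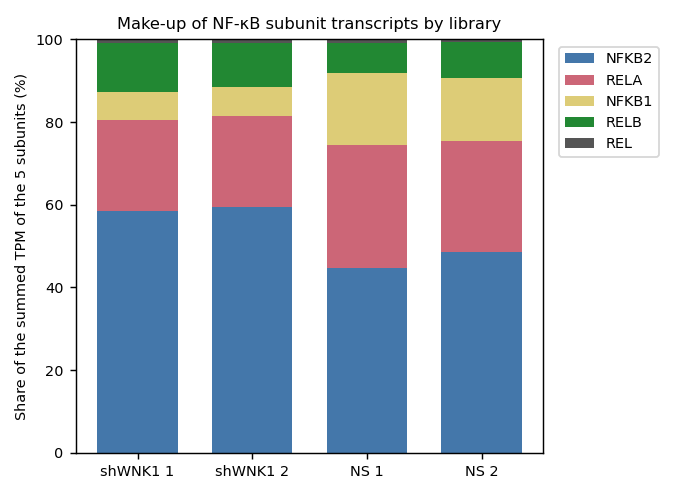
Share of each subunit in the summed TPM of the 5 NF-κB subunits (y axis, %) in each library, shWNK1 on the left and NS on the right. The NFKB2 share was 58.5% and 59.5% in shWNK1 libraries and 44.7% and 48.7% in NS libraries, and the NFKB1 share was 6.72% and 7.05% in shWNK1 libraries and 17.5% and 15.2% in NS libraries.

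Among the 10 kinases and adaptors, 5 rose, 1 fell and 4 were not called, with a median log2 fold change of 0.27. Over all genes tested, 18.5% rose and 20.2% fell, so 1 fall among 10 is near that share, and the rises of IKBKG and TRAF6 were lost in 9 and 5 of 12 alternatives. MAP3K14, which encodes NIK (chromosome 17, 45263119 to 45317029), had 66.5 and 71.4 CPM in shWNK1 cells, against 46.8 and 44.7 CPM in NS cells. It rose 1.51-fold (log2 0.59, SE 0.086, edgeR adjusted p = 1.2e-06). The opposite-strand gene MAP3K14-AS1 covers 15.1% of its exon bases and had 98 and 129 counts in shWNK1 libraries, against 78 and 64 in NS libraries, where MAP3K14 itself had 1160 and 1467 counts in shWNK1 libraries, against 799 and 757 in NS libraries. TRAF3, the adaptor that directs NIK to degradation (chromosome 14, 102777449 to 102911500), rose to 271 and 275 CPM in shWNK1 cells, against 204 and 180 CPM in NS cells (log2 0.51, SE 0.063, edgeR adjusted p = 9.7e-08). TRAF3 and MAP3K14 were thus both higher, with groups apart in each. TRAF2, which works with TRAF3, was at 50.7 and 63.1 CPM in shWNK1 cells and 56.7 and 56.9 CPM in NS cells. MAP3K8, the kinase TPL2 that binds the NFKB1 product p105 (chromosome 10, 30434021 to 30461833), had 10.7 and 9.68 CPM in shWNK1 cells and 5.51 and 4.49 CPM in NS cells. It rose 2.04-fold from a low level (log2 1.03, SE 0.201, edgeR adjusted p = 1.1e-04).

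Of the 3 parts of the IκB kinase complex, CHUK fell, IKBKG rose at the edge of the threshold and IKBKB was not called. CHUK, the IKKα catalytic subunit (chromosome 10, 100188300 to 100229596), had 40.0 and 38.9 CPM in shWNK1 cells, against 65.4 and 66.1 CPM in NS cells. It fell 1.67-fold (log2 -0.74, SE 0.087, edgeR adjusted p = 2.9e-08). IKBKB, the IKKβ catalytic subunit, was at 60.6 and 59.5 CPM in shWNK1 cells and 55.1 and 53.2 CPM in NS cells, apart but not called (edgeR adjusted p = 0.16). IKBKG, the scaffold NEMO, had 9.46 and 9.0 CPM in shWNK1 cells and 6.98 and 6.32 CPM in NS cells, just past the threshold (log2 0.47, edgeR adjusted p = 0.0496). IKBKG has a near-identical pseudogene copy, IKBKGP1, listed with at most 2 counts in any library, so reads placed in both copies may be missing from its count. The ubiquitin ligase TRAF6 was at 17.8 and 17.9 CPM in shWNK1 cells and 15.7 and 11.6 CPM in NS cells (log2 0.39, edgeR adjusted p = 0.040). The calls on IKBKG and TRAF6 ended on leaving out either shWNK1 library or NS replicate 2 (adjusted p of 0.157 to 0.376), and that on IKBKG also without NS replicate 1 (0.0541), which left 3 rises among the kinases and adaptors in the first 3 cases. TAB2, an adaptor of the kinase TAK1, was at 53.8 and 52.1 CPM in shWNK1 cells and 58.1 and 48.7 CPM in NS cells. RNF31, the catalytic part of the linear ubiquitin ligase, was counted 16 and 8 times in shWNK1 libraries, against 19 and 13 in NS ones, and 72.2% of its exon bases overlap other genes, so no level can be given for it.

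Of the 9 inhibitors and feedback regulators, 4 rose, 0 fell and 5 were not called, with a median log2 fold change of 0.17. With 20.2% of all genes tested falling and 18.5% rising, 0 falls among 9 genes says little by itself. In the edgeR test 0 of them were lower at an unadjusted p under 0.05, and DESeq2 and limma-voom also called 0 falls. TNFAIP3, the deubiquitinase A20 (chromosome 6, 137867214 to 137883312), had 204 and 199 CPM in shWNK1 cells, against 93.3 and 86.0 CPM in NS cells. BCL3, a nuclear IκB protein that works with p50 and p52 homodimers (chromosome 19, 44747705 to 44760044), had 47.6 and 44.2 CPM in shWNK1 cells, against 27.0 CPM in both NS libraries. TNFAIP3 had the largest log2 fold change of the 9 (1.17, SE 0.067, edgeR adjusted p = 2.2e-15), and BCL3 rose 1.70-fold (log2 0.76, SE 0.102). NFKBIZ, the inducible nuclear protein IκBζ (chromosome 3, 101827991 to 101861022), was low, with 10.4 and 9.97 CPM in shWNK1 cells and 5.86 and 3.90 CPM in NS cells. It rose 2.08-fold (log2 1.06, SE 0.210, edgeR adjusted p = 1.2e-04). NFKBIE, which encodes IκBε, rose to 48.8 and 54.8 CPM in shWNK1 cells, against 37.7 and 39.2 CPM in NS cells (log2 0.43, SE 0.094, edgeR adjusted p = 4.0e-04; 0.0571 without shWNK1 replicate 2).

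NFKBIA, the inhibitor IκBα that NF-κB induces, was not among the rises. It was at 27.1 and 30.4 CPM in shWNK1 cells and 26.9 and 31.7 CPM in NS cells (log2 -0.03, SE 0.115, edgeR adjusted p = 0.89), and the groups overlapped. NFKBIB, which encodes IκBβ, was likewise at 71.1 and 76.8 CPM in shWNK1 cells and 68.1 and 79.4 CPM in NS cells (log2 0.00, SE 0.083). The deubiquitinase CYLD was at 48.3 CPM in both shWNK1 libraries and 43.5 and 42.3 CPM in NS libraries, apart by a small amount and not called (edgeR adjusted p = 0.14). TNIP1, a partner of A20, was at 139 and 153 CPM in shWNK1 cells and 130 and 133 CPM in NS cells (log2 0.15, edgeR adjusted p = 0.066; 0.0254 without NS replicate 2). TNIP2, a partner of A20 and of p105, was at 41.2 and 37.7 CPM in shWNK1 cells and 33.6 and 40.1 CPM in NS cells. A p that misses the threshold does not show that these levels were the same.

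Of the 11 target genes, 8 could be tested, and 5 rose, 0 fell and 3 were not called, with a median log2 fold change of 0.76 over the 8. Of all genes tested, 18.5% rose and 20.2% fell, and 0 falls among 8 genes is not far from that share. By edgeR, 0 of the 8 were lower at an unadjusted p under 0.05, and DESeq2 and limma-voom called 0 falls. TRAF1, an adaptor of TNF receptors that NF-κB induces (chromosome 9, 120902393 to 120929173), had 31.9 and 32.8 CPM in shWNK1 cells, against 9.91 and 11.3 CPM in NS cells. It rose 3.04-fold (log2 1.61, SE 0.132, edgeR adjusted p = 1.3e-11), the largest change in either direction among the 32 tested genes. BIRC3, the inhibitor of apoptosis cIAP2 that also ubiquitinates NIK (chromosome 11, 102317450 to 102339403), had 231 and 222 CPM in shWNK1 cells, against 124 and 127 CPM in NS cells. It rose 1.80-fold (log2 0.85, SE 0.063, edgeR adjusted p = 1.2e-12). SDC4, the cell-surface proteoglycan syndecan-4 (chromosome 20, 45325288 to 45348424), had 6.59 and 5.64 CPM in shWNK1 cells and 2.87 and 2.13 CPM in NS cells (log2 1.29, SE 0.272, edgeR adjusted p = 2.8e-04). TNFAIP2, a TNF-induced gene (chromosome 14, 103123442 to 103137439), was at 8.26 and 7.40 CPM in shWNK1 cells, against 3.28 and 3.78 CPM in NS cells (log2 1.14, SE 0.232, edgeR adjusted p = 1.7e-04). Both genes were at a low level and had groups that did not overlap.

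ICAM1, the adhesion molecule, rose by the least of the called targets, to 60.1 and 63.9 CPM in shWNK1 cells, against 50.8 and 53.0 CPM in NS cells. Its log2 fold change of 0.26 (SE 0.085, edgeR adjusted p = 0.016) was not called without shWNK1 replicate 1 (0.0625) or 2 (0.239) or with DESeq2 (0.0552), and opposite-strand genes cover 25.4% of its exon bases. CFLAR, the caspase-8 inhibitor c-FLIP, was at 72.2 and 76.2 CPM in shWNK1 cells and 68.8 and 73.0 CPM in NS cells, with overlapping groups. CD83, an activation marker, was counted 19 and 25 times in shWNK1 libraries, against 16 and 21 in NS ones, and IER3, an early response gene, 19 and 13 times in shWNK1 libraries, against 10 and 8 in NS ones. At these counts the standard errors were 0.532 and 0.670 on the log2 scale, which leaves the CD83 difference within its error and that of IER3 about as large as its error. CD40, a TNF receptor of B cells, and LTB, which encodes lymphotoxin β, had 0 counts in all 4 libraries, which allows up to 3 counts, or 0.146 to 0.177 CPM per library. BCL2A1, an antiapoptotic BCL2 relative, was counted 0 and 3 times in shWNK1 libraries and 0 times in both NS ones. These 3 genes were not tested, and the limits cover counting error only.

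**Figure D4:**
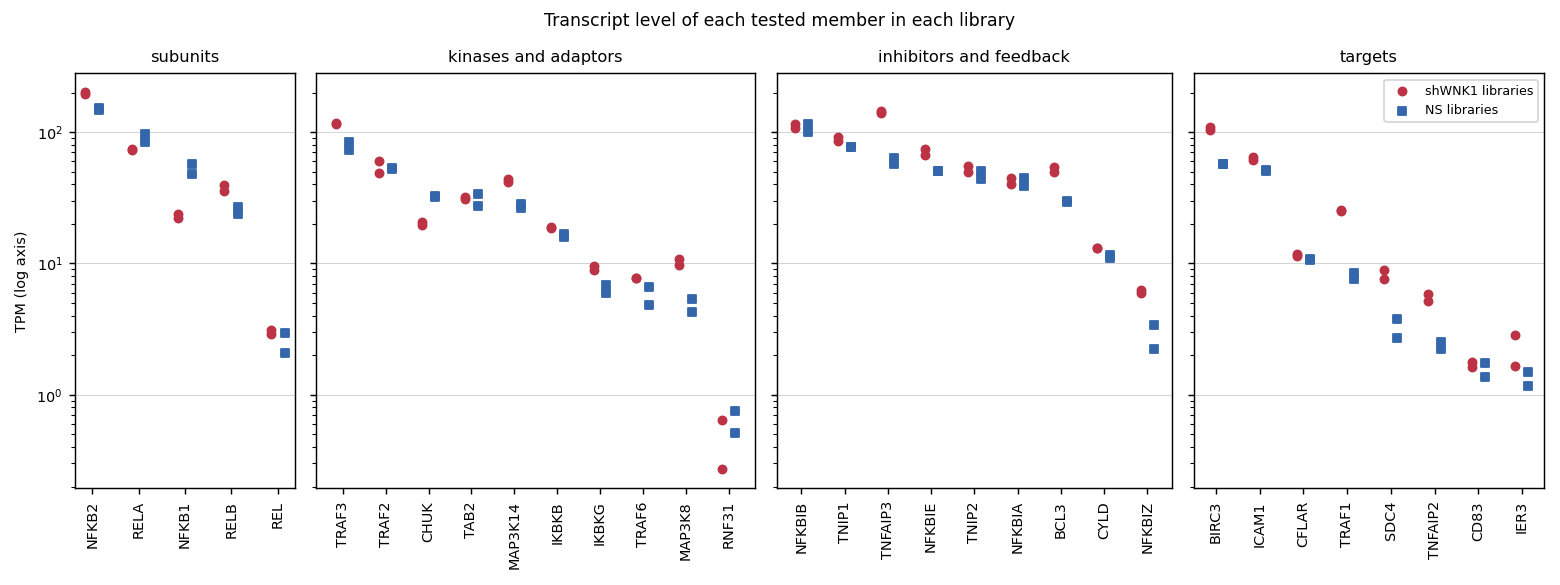
TPM on a log axis for each tested gene in each library, with shWNK1 libraries (circles) left of NS libraries (squares), in 4 panels by role. TNFAIP3, TRAF1 and BIRC3 are shifted up and NFKB1 and CHUK down without overlap, and NFKBIA, NFKBIB, TRAF2 and TAB2 overlap.

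Per length of annotated exons, NFKB2 was the most abundant subunit transcript in both groups, at 198 ± 5.59 TPM in shWNK1 cells and 150 ± 4.44 TPM in NS cells (mean ± SD, n = 2 each). TNFAIP3 reached 141 ± 3.37 TPM in shWNK1 cells, against 60.7 ± 4.6 TPM in NS cells, where it stood below NFKBIB (108 ± 9.59 TPM in NS cells) and TNIP1 (76.9 ± 0.136 TPM). In shWNK1 cells TNFAIP3 lay above both, NFKBIB being at 112 ± 5.27 TPM and TNIP1 at 88.7 ± 5.19 TPM. NFKBIA was at 42.7 ± 3.09 TPM in shWNK1 cells and 41.9 ± 4.16 TPM in NS cells. BIRC3 stood at 106 ± 3.52 TPM in shWNK1 cells, against 56.8 ± 0.0164 TPM in NS cells, and its partner TRAF2 at 54.7 ± 8.08 TPM in shWNK1 cells and 52.6 ± 0.887 TPM in NS cells. The ratio of BIRC3 to TRAF2 in TPM was 2.22 and 1.72 in shWNK1 libraries, against 1.07 and 1.09 in NS libraries. TRAF3 was the most abundant of the kinases and adaptors, at 116 ± 0.437 TPM in shWNK1 cells and 78.7 ± 8.32 TPM in NS cells.

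A 6-base word in the 3′ untranslated region (3′ UTR) was shared by all 3 genes that fell. The word, AGTATC, had been picked out in an earlier look at these same data as one found more often in falling genes, so the pattern is not independent of them. In the longest annotated 3′ UTR of each gene (GENCODE v29), it was present in 933 of 2806 falling genes (33.3%), 1381 of 6584 genes not called (21.0%) and 451 of 2488 rising genes (18.1%). Among the NF-κB genes it was present in 3 of 3 that fell (NFKB1, RELA and CHUK), in 4 of 13 not called (REL, IKBKB, TAB2 and CFLAR) and in 2 of 16 that rose (TRAF3 and SDC4). None of the 9 inhibitors and feedback regulators carried it, against 23.3% of all tested genes searched, which says little with 9 genes. Their median 3′ UTR was also shorter, at 834 bases against 1370 bases over all tested genes searched. The sites of WNK1, of the genes that fell and of both that rose are shown with the word in capitals, read 5′ to 3′ on the strand of the transcript.
WNK1: tgttaatagtacactttgAGTATCtttttc
NFKB1: tttggttcacttacagatAGTATCtagcaa
RELA: ttttattcttttattgtcAGTATCtgtatc
CHUK: ttccactgaaaatttaacAGTATCcccttc
TRAF3: gattactttgggggaatgAGTATCcttggt
SDC4: acctaatactgacttgtcAGTATCtccagc
These 30-base windows (GRCh38) lie at chr12:911186-911215 (WNK1, plus strand), chr4:102616776-102616805 (NFKB1, plus), chr11:65654212-65654241 (RELA, minus), chr10:100189004-100189033 (CHUK, minus), chr14:102907841-102907870 (TRAF3, plus) and chr20:45327147-45327176 (SDC4, minus). All 4 searched coding transcripts of NFKB1, all 5 of RELA and the 1 of CHUK carried the word, and among the other carriers so did the 1 of SDC4, which rose, all 4 of TAB2, which was not called, and 2 of 5 of TRAF3, which rose. The hairpin sequence is not given in the sources used here, and the part of the word in these falls was not tested. The AU-rich nonamer TTATTTATT, a word of unstable transcripts, was in the 3′ UTR of REL, CYLD, TNFAIP3, BIRC3 and CFLAR, which is 14.3% of the 35 genes, against 9.43% of tested genes searched.

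Of 131 further genes of the pathway, 95 were tested, and 37 rose, 19 fell and 39 were not called (18.5% and 20.2% of all genes tested rose and fell). They were listed by role with earlier results of these data known, so the counts are not independent of those results. Receptors and ligands were split, with 3 rises and 4 falls among 13. The TNF receptors TNFRSF1B, at 488 and 501 CPM in shWNK1 cells against 335 and 351 CPM in NS cells (log2 0.53), and TNFRSF1A (log2 0.78) rose, as did the ligand TNFSF9 (log2 0.75). The receptors TLR4 (log2 -0.84), TNFRSF8 (-0.98), TNFRSF11A (-0.81) and TLR2 (-1.12) fell. The calls on TNFRSF11A and TLR2 ended without shWNK1 replicate 1 or 2 or NS replicate 2, leaving 2 falls, and that on TLR2 also without NS replicate 1, with adjusted p of 0.0631 to 0.134; DESeq2 did not call TLR2 either (0.0797). TNF itself had 0 counts in all 4 libraries.

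Of 36 tested genes listed as receptor-proximal signalling, 12 rose and 5 fell. The falls were no more frequent than the 20.2% of all genes tested, of which 18.5% rose. The list also holds genes that act on IκB or RELA, such as NKIRAS1 and COMMD1. UBE2N, the Ubc13 enzyme that builds the lysine-linked ubiquitin chains used by TRAF6, was at 40.5 and 38.3 CPM in shWNK1 cells, against 126 and 137 CPM in NS cells (log2 -1.74, SE 0.080, edgeR adjusted p = 6.9e-18). Its 3′ UTR held the word AGTATC 4 times, and the opposite-strand gene NUDT4, which averaged 87.7 ± 3.31 CPM in shWNK1 cells against 94.9 ± 3.94 CPM in NS cells (SD, n = 2 each) and was not called, covers 41.6% of its exon bases. The IκB-binding GTPase NKIRAS1, with the word once, fell (log2 -1.59; the opposite-strand gene RPL15 covers 11.1% of its exon bases), and its paralogue NKIRAS2 rose (log2 0.75). COMMD1, which promotes RELA turnover, fell by 1.06, at an uncertain level since other genes overlap 35.2% of its exon bases, and RBCK1, a part of the linear ubiquitin ligase, by 0.35 on the log2 scale; RBCK1 was not called without shWNK1 replicate 1 or 2 or NS replicate 2 (adjusted p of 0.0583 to 0.134). Without shWNK1 replicate 1 or 2, 3 of these genes fell. Rises included the protease MALT1 (log2 0.49), the adaptor TANK (0.67) and the kinase IRAK4 (0.58), and MALT1 and IRAK4 carry the word once each. Over all the further pathway genes tested, the word was in 8 of 37 that rose (21.6%), 6 of 19 that fell (31.6%) and 7 of 39 not called (17.9%).

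Among 46 tested further targets, 22 rose and 10 fell, where the falls are near the 20.2% of all genes tested and 18.5% of those rose. The chemokine CXCL8, at 50.6 and 46 CPM in shWNK1 cells against 5.92 and 6.38 CPM in NS cells, changed most (log2 2.97, SE 0.133, edgeR adjusted p = 3.6e-18). The cytokine IL10 rose to 65.0 and 58.5 CPM in shWNK1 cells, against 20.3 and 24.5 CPM in NS cells (log2 1.46), and the stress gene GADD45A (1.01) and the cargo receptor SQSTM1 (0.80) rose as well. MYC (log2 -0.69), the adhesion receptor CD44 (-1.02), the SNARE protein STX11 (-1.18) and vimentin, VIM (-0.61), fell. Opposite-strand genes cover 21.0% of the exon bases of SQSTM1 and 24.3% of those of VIM. The word AGTATC was in the 3′ UTR of SQSTM1, which rose, and of STX11 and VIM, which fell. Other regulators act on many of these genes, so the list is not specific to NF-κB.

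**Figure D5:**
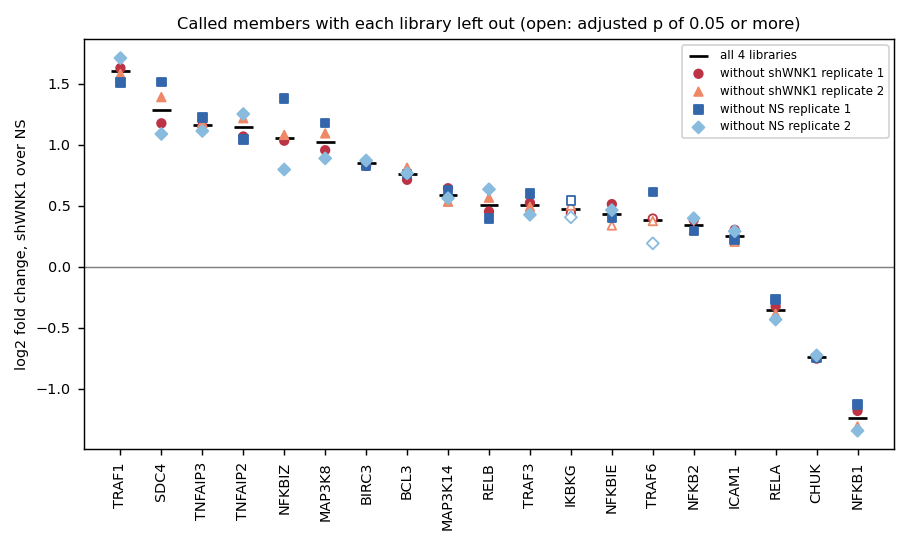
Log2 fold change of shWNK1 over NS (y axis) for the 19 genes called with all 4 libraries (black bars), and with each library left out in turn (coloured points, open where the adjusted p was 0.05 or more). No point crosses 0, and open points occur for IKBKG, TRAF6, ICAM1 and NFKBIE.

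With each library left out in turn, 15 of the 19 calls held every time; a library left alone in its group is then assumed to vary like the other group. The spread between points was widest for NFKBIZ, whose log2 fold change ran from 0.80 without NS replicate 2 to 1.38 without NS replicate 1, and narrowest for CHUK, from -0.75 to -0.72.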

How the data were processed

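Raw counts per gene were deposited by the authors for 4 libraries of total RNA. Per the file headers, featureCounts 2.0.0 assigned fragments to GENCODE 34 genes, ignoring strand, and kept pairs whose mates both mapped, not chimeric, at a mapping quality of 20 or more. Per the submitters' processing notes, Trimmomatic and STAR were used with the build hg38; their versions are not given in the sources used here. The deposited gene length column (other unit, bases) was used for TPM. A gene broken over several lines was dropped, as were the 45 chromosome Y copies of pseudoautosomal genes, all at 0, and 60682 genes stayed, of which 60369 matched a symbol; SOD2 did not.

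Counts were tested in edgeR 4.0.16 (R 4.3.3): filterByExpr (14864 genes), TMM factors, glmQLFit (robust) and two-sided glmQLFTest, shWNK1 over NS, with 2 residual degrees of freedom. The fit and the Benjamini-Hochberg adjustment covered all genes tested, and a gene was called at an adjusted p under 0.05. SE is the log2 fold change over the root of F. The script was tested on simulated data. Alternatives were DESeq2 1.42.0, limma-voom (limma 3.58.1), RLE and upper-quartile factors, other low-count filters, a fit with the replicate number as a block, a fit without immunoglobulin and mitochondrial genes, and fits that omit each library in turn. The members, lists and tests were chosen with earlier results of these data known. All 35 members are named; of further pathway genes, the 4 smallest p in each direction per list. Counts per library (16973521 to 20164122) set the precision, and intervals and limits cover counting error only.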

Additional observations from a re-analysis of the deposited data

How the results depend on the processing

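Of the 32 tested genes, 27 kept their side of the threshold under each alternative that gave a value (10 of 12 for RNF31 and IER3, 12 for the others), and 0 of the called ones reversed. The exceptions were IKBKG, TRAF6, ICAM1 and NFKBIE, whose calls ended under 9, 5, 3 and 1 alternatives, and TNIP1, which was called with upper-quartile factors (adjusted p = 0.0204) and without NS replicate 2. Rises among the NF-κB genes numbered 12 to 17 and falls 3 under each alternative. Rises among kinases and adaptors were 3 with DESeq2, 3 with the replicate block and 3 to 4 with a library left out, as IKBKG, TRAF6 or both lost their calls. With a library left out, falls numbered 3 to 5 among receptor-proximal genes and 2 to 3 among receptors and ligands, and all genes rising numbered 1632 to 2778 and falling 1964 to 3024; these fits have fewer libraries. Same-numbered libraries share a number and the letter, A or B, that opens their short names. What the letter stands for is not stated in the sources used here, so a pairing or batch cannot be told from it. The deviations of same-numbered libraries from the group means correlated at -0.0047 across tested genes. With the replicate block, 14 of the NF-κB genes rose and 3 fell. No scaling moved the median log2 fold change by over 0.04. Low counts limited RNF31, CD83, IER3 and BCL2A1, which had at most 25 counts in any library. The counts of RNF31 and IER3 are uncertain beyond depth, since other genes overlap 72.2% and 32.9% of their exon bases.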
